A study of Homo sapiens with 4 samples.

Results

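The 10 genes described here are 4 cadherins (CDH15, CDH1, CDH2 and CDH3), the epithelial surface protein EPCAM, the filament protein VIM and 4 transcription factors of the epithelial-mesenchymal switch (SNAI1, SNAI2, ZEB1 and ZEB2), out of 25192 genes in the tables. They were measured by mRNA sequencing in A549, an established human lung adenocarcinoma cell line, in 4 libraries. Control cells (EV) had received an empty retrovirus that expresses GFP alone, FCN3-virus-transduced cells had received the same retrovirus carrying V5-tagged FCN3 and GFP, and RNA was taken 48 h after infection in both groups, with 2 libraries per group that share replicate numbers 1 and 2. CDH15 was chosen on its measured values in this same comparison, a large increase from near 0, so its values are given as a description with no test. The other 9 genes were chosen for their known roles, but with earlier results of these data already known.

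Classical cadherins are transmembrane proteins that hold neighbouring cells together by binding cadherins on the next cell, and their inner tails attach to the actin skeleton through catenins. In an epithelial-mesenchymal transition (EMT), E-cadherin (CDH1) gives way to N-cadherin (CDH2), vimentin (VIM) accumulates, and the zinc-finger repressors of the SNAI and ZEB families bind short DNA elements called E-boxes in genes such as CDH1. M-cadherin (CDH15) is the classical cadherin of skeletal muscle precursors, and P-cadherin (CDH3) belongs to basal epithelia. A549 is an epithelial tumour line that also carries mesenchymal transcripts.

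FCN3, the gene carried by the virus, was checked first and had 1 and 0 expected counts in the EV libraries against 722388 and 448352 in the FCN3 libraries. The libraries held between 16353554 and 35733735 expected counts, and in both groups replicate 1 was the deeper one. A count of 3, taken as the floor of detection, corresponds to 0.084 to 0.183 counts per 1000000 of the raw library totals, which covers counting error only. The counts per 1000000 given for genes (CPM) are scaled by the TMM method. The keratins KRT7, KRT8 and KRT18 had at least 1612 TPM in every library (TPM is a level per 1000000 transcripts, corrected for transcript length), while the alveolar markers NKX2-1, SFTPA1, SFTPB, SFTPC and SFTPD had at most 2 counts in any library. The summed level of the 5 A549 markers (KRT7, KRT8, KRT18, KRT19 and EPCAM) was 7817 and 9814 TPM in EV cells and 8507 and 10235 TPM in FCN3-virus-transduced cells, so the groups overlapped. KRT7, KRT8 and KRT18 made up most of this sum, and each overlapped as well. KRT19 was higher in both FCN3 libraries (87.2 and 97.9 TPM against 32.6 and 52.4 in EV). EPCAM was lower in both (1.09 and 1.61 TPM against 2.66 and 3.65 in EV). Of the 3 leukocyte markers, CD3E was at 0 in every library and PTPRC had at most 1 count, while CD68, a lysosomal protein best known from macrophages, had 33.9 and 35.7 TPM in EV and 61.9 and 49.8 TPM in FCN3 libraries, both higher. Of the 3 endothelial markers, PECAM1 was at 0 in every library and VWF and CDH5 had at most 4 counts. The part of other cell types in the results was not tested. The 3 fibroblast markers summed to 3.63 and 8.63 TPM in EV and 2.82 and 8.27 TPM in FCN3 libraries. In bulk RNA, fewer cells with a transcript and less transcript per cell cannot be told apart.

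Genes were tested over the whole table of 14099 genes with enough counts, by edgeR's quasi-likelihood test with Benjamini-Hochberg adjustment (FDR) and a threshold of 0.01. 9 of the 10 genes passed the count filter, and CDH3 did not. 4 fits are given: edgeR with no block, edgeR with a block (a term that compares libraries of the same replicate number), and DESeq2 in the same 2 forms. Without the block, edgeR called 0 of the 8 tested genes other than CDH15, against 0.965% of all tested genes, and 5 of the 8 had an unadjusted p below 0.05 (CDH2, EPCAM, VIM, ZEB1 and ZEB2), beside 25.1% of all tested genes. With the block it called 7 of the 8, against a background of 36.2% of all genes. Of the 7, 5 were higher (background 19.1%) and 2 were lower (background 17.1%) in FCN3-virus-transduced cells. DESeq2 called CDH2, VIM and ZEB2 without the block (background 7.95%) and the same 3 with it (background 16.7%). At an FDR of 0.05, edgeR without the block called CDH2 and ZEB2 (background 7.19%). The FCN3 libraries were both above the EV libraries for CDH2, VIM, ZEB1 and ZEB2 (background 28.0%) and below them for EPCAM (background 26.5%). Nothing in the labels says that the libraries of a group came from separate cultures, so the spread between them may be technical. The p-values rest on this spread, and both methods also borrow spread across genes. With the block each gene keeps only 1 residual degree of freedom. The small p-values of edgeR with the block therefore rest mostly on spread estimated over many genes, not on that of the gene itself.

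**Figure D1:**
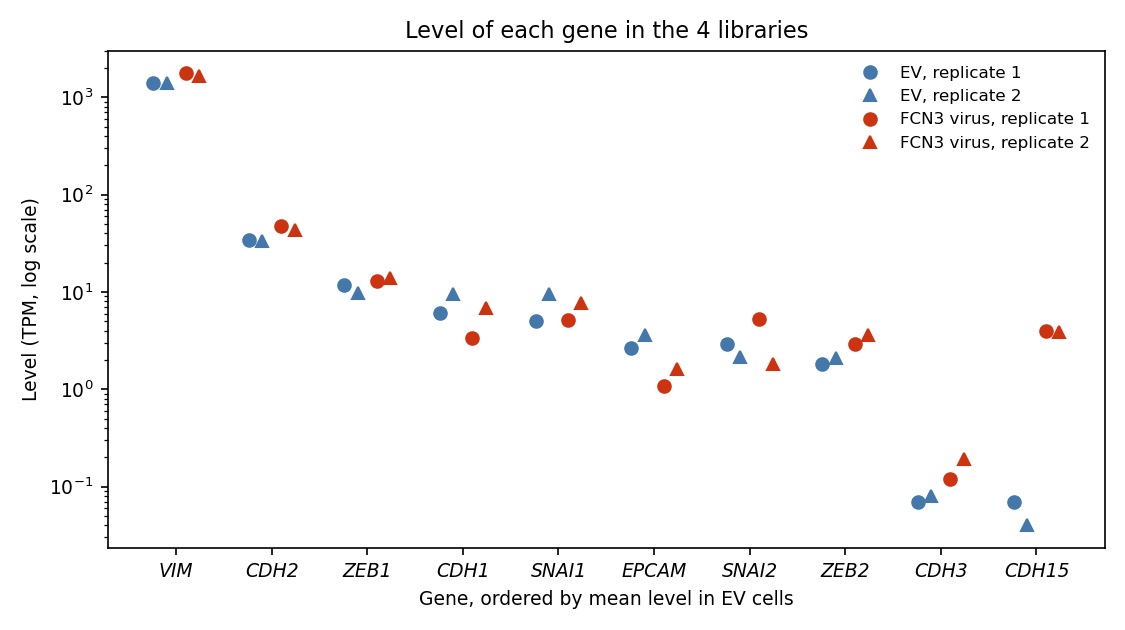
Level of each of the 10 genes in each library in TPM on a log axis, with blue for EV, red for FCN3 virus, circles for replicate 1 and triangles for replicate 2. VIM had at least 1398 TPM everywhere, CDH15 moved from 0.04 and 0.07 TPM to 3.87 and 3.99 TPM, and the colours overlapped for CDH1, SNAI1 and SNAI2.

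CDH2, VIM, ZEB1 and ZEB2 are shown with the sequence before a transcription start, where E-boxes of the SNAI and ZEB repressors can be looked for. They were the only ones of the 10 genes with a promoter window in the reference used. CDH15, CDH1, CDH3, EPCAM, SNAI1 and SNAI2 had none and could not be searched. RefSeq promoter windows (GRCh38.p14, 250 bases before to 50 bases after a start) matched these 4 of the 10 genes, with 11 windows in all. The 250 bases before 1 start of each are printed 5′ to 3′ in lower case, with capitals for CAGGTG or its reverse complement CACCTG, the E-box letters searched on both strands. The window with the most matches was printed for each gene, or its first window where none had a match.
CDH2 (window 1 of 2, chr18:28177131-28177380, minus strand): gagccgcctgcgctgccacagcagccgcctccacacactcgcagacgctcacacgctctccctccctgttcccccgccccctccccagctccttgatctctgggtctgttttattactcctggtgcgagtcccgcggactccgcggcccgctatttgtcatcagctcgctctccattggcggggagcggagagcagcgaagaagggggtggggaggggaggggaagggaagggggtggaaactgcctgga
VIM (window 1 of 1, chr10:17227991-17228240, plus strand): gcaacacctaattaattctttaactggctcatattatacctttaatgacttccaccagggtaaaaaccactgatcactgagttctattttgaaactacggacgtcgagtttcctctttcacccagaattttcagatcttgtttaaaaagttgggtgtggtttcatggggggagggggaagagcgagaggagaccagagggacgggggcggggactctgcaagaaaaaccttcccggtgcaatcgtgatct
ZEB1 (window 3 of 7, chr10:31318966-31319215, plus strand): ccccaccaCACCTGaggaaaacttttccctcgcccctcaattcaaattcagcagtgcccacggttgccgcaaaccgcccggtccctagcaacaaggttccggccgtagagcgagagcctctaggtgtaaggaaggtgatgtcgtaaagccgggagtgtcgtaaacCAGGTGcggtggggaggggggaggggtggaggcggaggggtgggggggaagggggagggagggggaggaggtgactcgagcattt
ZEB2 (window 1 of 1, chr2:144520120-144520369, minus strand): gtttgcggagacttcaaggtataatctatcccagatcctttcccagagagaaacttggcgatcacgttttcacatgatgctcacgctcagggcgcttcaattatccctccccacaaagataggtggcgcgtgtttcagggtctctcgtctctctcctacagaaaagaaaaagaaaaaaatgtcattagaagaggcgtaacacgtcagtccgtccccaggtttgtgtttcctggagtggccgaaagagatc

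The E-box letters occurred in 2 of the 7 ZEB1 windows. In the printed ZEB1 window they began 242 and 85 bases before the start, and a further match began 33 bases after it, outside the printed stretch. In another ZEB1 window they began 57 bases before the start. The windows of CDH2, VIM and ZEB2 held none. Of 35116 promoter windows of the same length, 20.6% held these letters. Of 3 other motifs searched on both strands, the amino acid response element TGATGNAA is in 3.62% of all windows, the ER stress element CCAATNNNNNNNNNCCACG in 0.0769% and the UPRE core TGACGTGG in 0.729%, and none occurred in the 11 windows. A match describes letters and does not show binding.

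CDH15 was nearly silent in EV cells and clearly detected with the FCN3 virus. It lies on the plus strand of chromosome 16 of GRCh37 from 89238156 to 89261900. Its expected counts were 4 and 1 in EV replicates 1 and 2 and 216 and 121 in FCN3 replicates 1 and 2. Both FCN3 libraries were far above both EV libraries, and the EV counts are at or near the floor of 3. In CPM the levels were 0.0847 ± 0.0354 (SD, n = 2) and 6.23 ± 0.201 (SD, n = 2), and the fitted log2 fold change from edgeR was 5.99. Within replicate 1 the ratio of FCN3 to EV CPM was 58.0-fold, with a 95% counting interval of 22.3 to 215, and within replicate 2 it was 102-fold with an interval of 17.9 to 4055. The EV library of replicate 2 held a single count.

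In length-corrected levels CDH15 was last or next to last of the 10 genes in the EV libraries, at 0.07 and 0.04 TPM, and the sixth in both FCN3 libraries, at 3.99 and 3.87 TPM. The library order of CDH1 was different, with 3.35 TPM in FCN3 replicate 1 and 6.79 TPM in FCN3 replicate 2. CDH15 was thus above CDH1 in FCN3 replicate 1 and below it in FCN3 replicate 2. CDH15 made up 0.140% and 0.0659% of the summed level of 5 type I cadherins (CDH1, CDH2, CDH3, CDH4 and CDH15) in the EV libraries and 5.85% and 5.23% in the FCN3 libraries. The sum itself was 49.9 and 60.7 TPM in EV and 68.2 and 73.9 TPM in FCN3-virus-transduced cells.

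The genes most like CDH15 in pattern, by the Euclidean distance between centred log2 CPM values over the 4 libraries, were FAM129A (distance 0.361), DDIT3 (1.10) and SLC16A12 (1.39). FAM129A, also known as NIBAN1, is a stress-responsive gene, and it went from 1.78 and 1.79 CPM in EV to 84.9 and 70.8 CPM in FCN3 libraries. DDIT3, which encodes the stress transcription factor CHOP, went from 6.92 and 7.89 CPM to 155 and 143 CPM. SLC16A12, a solute carrier, went from 0.302 and 0.0597 CPM to 4.57 and 3.42 CPM. All 3 were chosen for their likeness to CDH15 and carry no test.

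Around CDH15, 6 other genes of the tables lie within 250 kb and 5 of them were tested. The nearest is SLC22A31, an organic ion transporter family gene on the minus strand from 89262169 to 89268059, whose 3′ end is 269 bases from that of CDH15. The strand setting and the annotation of the counting are unknown here, so whether each read near these facing ends was given to the right gene of the pair was not tested. SLC22A31 had 32 and 23 expected counts in EV and 480 and 317 in FCN3 libraries, or 0.878 and 1.37 CPM against 14.2 and 15.9 CPM. It was higher in both FCN3 libraries, with a log2 fold change of 3.83 ± 0.25 (SE) and an adjusted p of 0.00305 in edgeR without the block. ANKRD11, a chromatin-associated ankyrin repeat gene 72138 bases away, had 169 and 159 CPM in EV and 257 and 234 CPM in FCN3 libraries, a log2 fold change of 0.58 ± 0.09 (SE) with an adjusted p of 0.026 in edgeR without the block and 5.6e-14 with it. ZNF778, a zinc-finger gene 22211 bases away, was called with the block alone (log2 fold change 0.39, adjusted p of 0.0094 in edgeR).

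ACSF3, a mitochondrial acyl-CoA synthetase gene 7627 bases from CDH15 on its other side, had 21.8 and 22.8 CPM in EV and 22.2 and 21.0 CPM in FCN3 libraries, and its groups overlapped. CBFA2T3, a transcriptional corepressor gene, had at most 19 counts in any library and was not called. LINC00304 did not pass the count filter. Of the 5 tested neighbours 3 were called as higher by edgeR with the block (background 19.1%) and 2 by DESeq2 in either fit. The DESeq2 background, for calls in either direction, was 7.95% without the block and 16.7% with it.

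**Figure D2:**
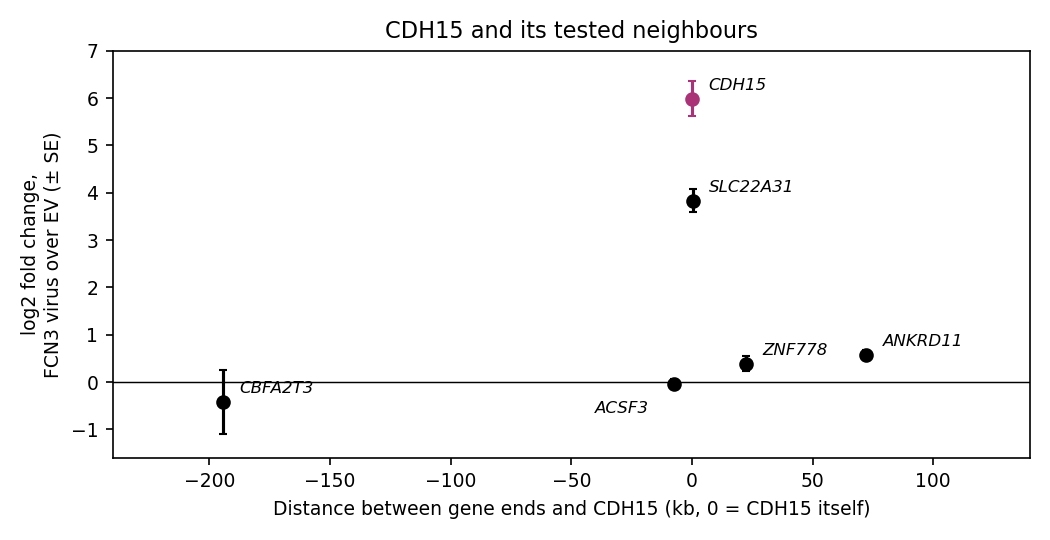
Log2 fold change (edgeR without the block, FCN3 virus over EV, bars are SE) of CDH15 and its 5 tested neighbours against the distance between gene ends in kb. CDH15 (5.99) and SLC22A31 (3.83), 269 bases apart, stand above ANKRD11 (0.58), ZNF778 (0.39), ACSF3 (−0.04) and CBFA2T3 (−0.41).

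Because CDH15 is known from muscle, a list of 30 skeletal muscle genes was read beside it. 10 of the 30 were at 0 in every library and 23 had at most 3 counts in every library. The regulators MYOD1 and MYOG were at 0 throughout, the filament gene DES had at most 2 counts and the creatine kinase gene CKM at most 1. 6 of the 30 passed the count filter, with a median log2 fold change of 0.16 beside 0.02 over all tested genes. TNNC1, troponin C of slow and cardiac muscle, was the only one of the 6 called by edgeR with the block (background 36.2%). It had 0.878 and 1.02 CPM in EV and 1.65 and 3.77 CPM in FCN3 libraries, with an adjusted p of 5.1e-05 in that fit and 0.166 without the block. The summed level of the 30 genes was 84.0 and 107 TPM in EV and 77.0 and 96.7 TPM in FCN3 libraries, so the groups overlapped. With 23 of the 30 at no more than 3 counts, this sum came mostly from the few remaining genes and does not describe the whole list.

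CDH2, N-cadherin, had the highest level of the 5 type I cadherins in every library and was higher with the FCN3 virus. The gene is on chromosome 18 (minus strand, 25512843 to 25757910 of GRCh37). It had 78.1 and 77.7 CPM in EV replicates 1 and 2 and 117 and 107 CPM in FCN3 replicates 1 and 2. The groups did not overlap and the EV libraries were nearly equal. The log2 fold change was 0.53 ± 0.09 (SE), with 0.59 within replicate 1 and 0.46 within replicate 2, where each of these is a difference of log2 CPM. Its adjusted p was 0.032 in edgeR without the block, 5.3e-11 with it, 0.00127 in DESeq2 and 3.5e-07 in DESeq2 with the block.

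CDH1, E-cadherin, had the opposite sign, and its libraries also differed by replicate number. It is on chromosome 16 (plus strand, 68771195 to 68869440 of GRCh37). It had 15.4 and 24.4 CPM in EV replicates 1 and 2 and 9.23 and 18.4 CPM in FCN3 replicates 1 and 2. FCN3 replicate 2 lay above EV replicate 1, so the groups overlapped, although the FCN3 library was the lower one within both numbers (log2 differences −0.73 and −0.40). Without the block edgeR gave a log2 fold change of −0.53 ± 0.38 (SE) and an adjusted p of 0.45. With the block it gave −0.57 ± 0.10 (SE) and an adjusted p of 3.2e-06. DESeq2 gave adjusted p-values of 0.444 without and 0.0103 with the block, neither below 0.01. Between replicate numbers CDH1 was higher by 0.82 (log2) in replicate 2 than in replicate 1, with an adjusted p of 3.3e-09 in edgeR with the block, a difference that 22.2% of all tested genes also passed.

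The ratio of CDH2 to CDH1 levels (TPM over TPM) was 5.63 and 3.53 in the EV libraries and 14.1 and 6.42 in the FCN3 libraries. All 4 libraries thus held more CDH2 than CDH1, and the FCN3 libraries did not overlap the EV libraries. The ratio was 2.50-fold higher with the FCN3 virus within replicate 1 and 1.82-fold within replicate 2. An exact two-sided permutation test gave p = 0.333, the smallest value that 2 libraries against 2 can give, so it cannot separate the groups.

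CDH3, P-cadherin, was near the floor in all 4 libraries, with 6 and 3 expected counts in EV and 10 and 9 in FCN3 libraries. It is on chromosome 16 (plus strand, 68670092 to 68761371 of GRCh37), on the same arm as CDH1. Its ratio of FCN3 to EV was 1.79 within replicate 1 (95% counting interval 0.590 to 5.99) and 2.52 within replicate 2 (0.630 to 14.5). Both intervals include 1, so a difference was not detectable at this depth.

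**Figure D3:**
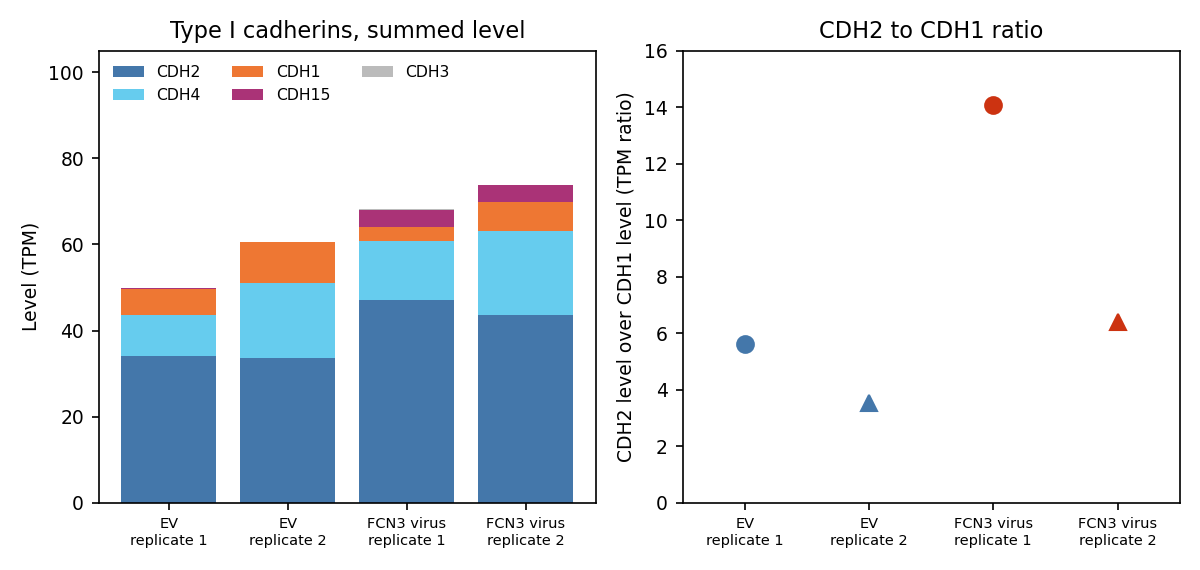
Left, bars from 0 show the summed TPM of 5 type I cadherins in each library by gene. Right, the TPM ratio of CDH2 to CDH1 in each library, with circles for replicate 1 and triangles for replicate 2. CDH2 is the largest part of every bar, the CDH15 part is seen in the FCN3 libraries (5.85% and 5.23%), and the ratio is 3.53 to 5.63 in EV and 6.42 to 14.1 in FCN3 libraries.

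EPCAM, an adhesion protein of most epithelia, was low in these cells and lower with the FCN3 virus. It is on chromosome 2 (plus strand, 47572297 to 47614740 of GRCh37). Its counts were 82 and 52 in EV and 34 and 29 in FCN3 libraries, or 2.25 and 3.11 CPM against 1.00 and 1.46 CPM. The groups did not overlap, and the FCN3 library was lower within both numbers (log2 differences −1.11 and −1.05). The edgeR log2 fold change was −1.12 ± 0.34 (SE) with an adjusted p of 0.117 without the block and −1.13 ± 0.25 (SE) with an adjusted p of 1.6e-04 with it. DESeq2 did not call it without (adjusted p of 0.216) or with the block (0.0853).

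VIM, the intermediate filament protein of mesenchymal cells, had the highest level of the 10 genes, between 1398 and 1763 TPM in every library. It is on chromosome 10 (plus strand, 17270240 to 17279592 of GRCh37). It had 1500 and 1536 CPM in EV and 2058 and 1896 CPM in FCN3 libraries. The FCN3 libraries were both higher, by 0.46 within replicate 1 and 0.30 within replicate 2 (log2). The log2 fold change was 0.38 ± 0.09 (SE). Its adjusted p was 0.076 in edgeR without the block, 6.2e-09 with it, 0.00646 in DESeq2 and 7.3e-08 in DESeq2 with the block.

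Of the repressors, ZEB2 had the most similar difference between viruses in both replicate numbers. It is on chromosome 2 (minus strand, 145121931 to 145278624 of GRCh37). It had 8.15 and 9.86 CPM in EV and 15.2 and 17.9 CPM in FCN3 libraries. Both FCN3 libraries were above both EV libraries, by 0.89 and 0.86 on the log2 scale within replicates 1 and 2. The log2 fold change was 0.89 ± 0.17 (SE). Its adjusted p was 0.045 in edgeR without the block, 1.2e-09 with it, 0.00583 in DESeq2 and 1.6e-04 in DESeq2 with the block.

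ZEB1, the related repressor, is on chromosome 10 (plus strand, 31607424 to 31818742 of GRCh37). It had 37.3 and 31.1 CPM in EV and 44.7 and 46.9 CPM in FCN3 libraries. The groups did not overlap, but the difference was 0.26 within replicate 1 and 0.59 within replicate 2 (log2). The log2 fold change was 0.41 ± 0.12 (SE), with an adjusted p of 0.113 in edgeR without the block and 6.6e-06 with it. DESeq2 gave adjusted p-values of 0.118 and, with the block, 0.0123, neither below 0.01. ZEB1-AS1, which overlaps the start of ZEB1 on the other strand, had 63 and 42 expected counts in EV and 72 and 43 in FCN3 libraries and was not called. ZEB2-AS1 was at 0 in every library. The kit keeps strand, but the strand setting of the counting is not given in the sources used here, so reads of ZEB1, ZEB2 and VIM and of their antisense partners could not be told apart with certainty.

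SNAI1 and SNAI2, which encode Snail and Slug, differed between the replicate numbers, and neither had 1 direction in both. SNAI1 is on chromosome 20 (plus strand, 48599517 to 48605423 of GRCh37). It had 4.23 and 8.12 CPM in EV replicates 1 and 2 and 4.72 and 6.89 CPM in FCN3 replicates 1 and 2. Its replicate 2 libraries were the higher ones in both groups, and the FCN3 difference was 0.16 within replicate 1 and −0.24 within replicate 2 (log2). The log2 fold change was −0.04 ± 0.37 (SE), with an adjusted p of 0.96 in edgeR without the block and 0.89 with it.

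SNAI2 is on chromosome 8 (minus strand, 49830157 to 49834299 of GRCh37). It had 3.07 and 2.27 CPM in EV replicates 1 and 2 and 6.04 and 2.06 CPM in FCN3 replicates 1 and 2. FCN3 replicate 1 stood above the other 3 libraries, while FCN3 replicate 2 was the lowest, so the log2 differences had opposite signs (0.96 and −0.13). The adjusted p was 0.49 in edgeR without the block, 0.0037 with the block, and 0.66 and 0.488 in the DESeq2 fits. The call with the block therefore comes from a gene whose direction was not shared by both replicate numbers. Between replicate numbers, SNAI1 was higher by 0.74 in replicate 2 (adjusted p of 1.1e-04) and SNAI2 was lower, at −1.08 (adjusted p of 9.3e-05), in edgeR with the block.

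**Figure D4:**
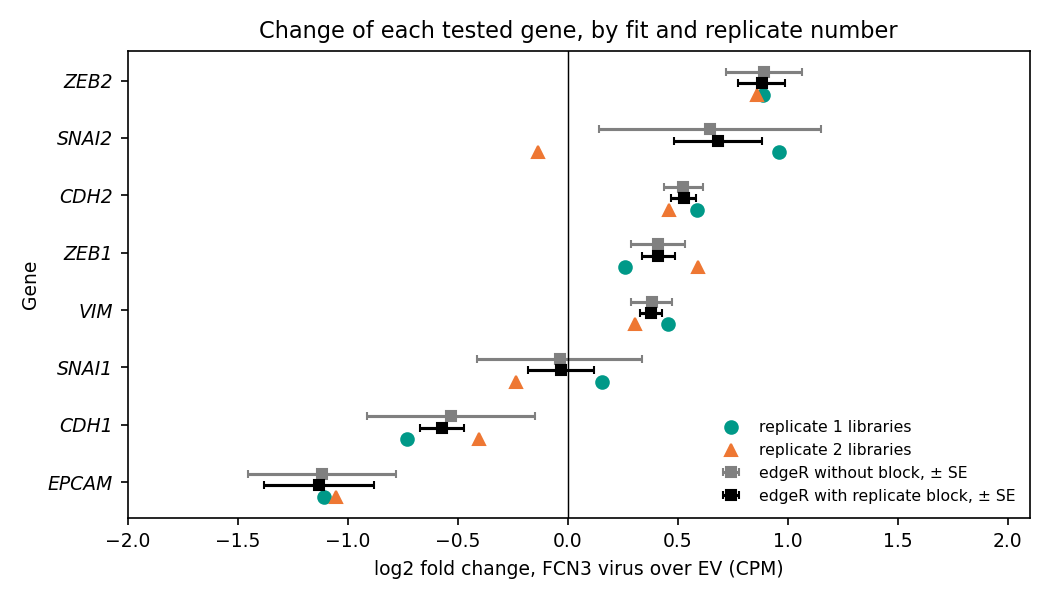
Log2 fold change of the 8 tested genes other than CDH15 (FCN3 virus over EV), with grey squares for edgeR without and black squares for edgeR with the replicate block (bars are SE), and the difference within replicate 1 (circles) and replicate 2 (triangles). For SNAI1 and SNAI2 the circle and the triangle lie on opposite sides of 0, and for the other 6 genes they lie on the same side.

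The order of length-corrected levels was stable at its top. VIM, CDH2 and ZEB1 came the first, the second and the third in all 4 libraries. Below them, CDH1 (6.06 and 9.53 TPM) and SNAI1 (5.03 and 9.59 TPM) were neighbours in EV cells and exchanged places between the EV libraries. EPCAM (2.66 and 3.65 TPM), SNAI2 (2.90 and 2.12 TPM) and ZEB2 (1.80 and 2.11 TPM) followed, with overlapping ranges for EPCAM and SNAI2. In the FCN3 libraries EPCAM was the ninth, at 1.09 and 1.61 TPM, and CDH3 was the last, at 0.12 and 0.19 TPM. ZEB2, at 2.89 and 3.58 TPM, was above EPCAM in both FCN3 libraries and below it in both EV libraries.

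Other genes of the same pathways were read from lists chosen by function, with the edgeR calls with the block (background 19.1% higher and 17.1% lower) given first. The counts at an unadjusted p below 0.05 in edgeR without the block stand beside 25.1% of all tested genes. The calls of edgeR without the block stand beside 0.965%. DESeq2 calls in either direction stand beside 7.95% without the block and 16.7% with it. The genes named from each list were called by edgeR with the block. Of 55 other cadherin superfamily genes 23 were tested, with a median log2 fold change of 0.07 beside 0.02 over all tested genes. Their values ran from −1.20 to 4.43, and 9 had an unadjusted p below 0.05 in edgeR without the block. The gene at 4.43 is not named, because it missed the rule of a call with the block and at least 1 CPM on average. 9 of the 23 were called as higher and 3 as lower. DESeq2 called 1 higher and 1 lower without the block and 6 higher and 2 lower with it. PCDH9, a protocadherin, fell from 107 and 120 CPM to 47.6 and 51.0 CPM, with a log2 fold change of −1.20 ± 0.10 (SE) and an adjusted p of 0.0064 in edgeR without the block. It was the only one of the 23 called in that fit. PCDH1, a protocadherin of airway epithelium, had 0.412 and 0.358 CPM in EV and 3.69 and 3.12 CPM in FCN3 libraries. Its log2 fold change was 3.11, with an adjusted p without the block of 0.012 in edgeR and 1.2e-05 in DESeq2. With the block edgeR gave 9.3e-13. CDHR1, a cadherin known from photoreceptors, had 0.220 and 0.538 CPM against 1.47 and 1.96 CPM. DSC3, a desmosomal cadherin of stratified epithelia, had 2.61 and 2.87 CPM against 5.96 and 6.13 CPM.

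Of 26 catenins and other junction partners 22 were tested, with a median log2 fold change of 0.05. 6 were called as higher and 7 as lower by edgeR with the block, 0 by edgeR without it (6 had an unadjusted p below 0.05) and 0 by DESeq2 without it, and 2 higher and 4 lower by DESeq2 with the block. JUP, plakoglobin, had 54.2 and 117 CPM in EV replicates 1 and 2 and 40.4 and 68.1 CPM in FCN3 replicates 1 and 2, so that it was lower within both numbers while the groups overlapped. Its adjusted p was 0.395 in edgeR without the block and 4.7e-11 with it. PVRL4, or nectin 4, had 1.54 and 2.57 CPM against 3.54 and 4.47 CPM. ARVCF, a catenin of the p120 family, had 2.25 and 2.69 CPM against 4.27 and 4.93 CPM. LIMA1, an actin-binding partner of the cadherin-catenin complex, had 26.7 and 31.7 CPM against 47.0 and 38.0 CPM.

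Of 37 epithelial genes 24 were tested, with a median log2 fold change of 0.13. edgeR called 9 as higher and 2 as lower with the block and 0 without it (7 had an unadjusted p below 0.05), and DESeq2 called 4 as higher without and 7 as higher with the block and none as lower. This direction is opposite to the values of CDH1 and EPCAM. KLF4, a transcription factor of epithelial differentiation, had 9.63 and 8.24 CPM in EV and 27.4 and 22.3 CPM in FCN3 libraries. Its log2 fold change was 1.47, with an adjusted p without the block of 0.0129 in edgeR and 1.9e-08 in DESeq2. With the block edgeR gave 2.4e-18. KRT19, a keratin of simple epithelia, had 23.1 and 37.5 CPM against 67.3 and 74.4 CPM. OCLN, occludin of tight junctions, had 27.0 and 21.98 CPM against 60.5 and 50.5 CPM. CRB3, an apical polarity protein, had the opposite direction, with 1.59 and 2.09 CPM against 0.855 and 0.704 CPM.

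Of 38 mesenchymal genes 32 were tested, with a median log2 fold change of 0.14. edgeR called 12 as higher and 3 as lower with the block and 0 without it (10 had an unadjusted p below 0.05), and DESeq2 called 3 as higher without the block and 7 higher and 2 lower with it. LOX, which crosslinks collagen, had 0.466 and 0.478 CPM in EV and 2.005 and 1.61 CPM in FCN3 libraries. ACTA2, smooth muscle actin, had 14.7 and 17.3 CPM against 26.8 and 29.9 CPM. TAGLN, transgelin, had 24.4 and 76.2 CPM in EV and 46.9 and 130 CPM in FCN3 replicates 1 and 2, with replicate 2 the higher library in both groups.

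Of 27 other transcription factors of the transition 24 were tested, with a median log2 fold change of −0.04. edgeR called 4 as higher and 7 as lower with the block and 0 without it (9 had an unadjusted p below 0.05), and DESeq2 called 1 higher and 2 lower without the block and 2 higher and 5 lower with it. ID2, an inhibitor of basic helix-loop-helix factors, had 152 and 213 CPM in EV and 53.1 and 75.0 CPM in FCN3 libraries. Its log2 fold change was −1.51, with an adjusted p without the block of 0.025 in edgeR and 1.9e-10 in DESeq2. With the block edgeR gave 4.2e-29. ID1, its relative, had 163 and 242 CPM against 102 and 118 CPM. These inhibitors were counted together with the other factors, so the median and call counts of the list do not give a direction of the transition. ETS1, a factor of mesenchymal and endothelial cells, had 116 and 92.1 CPM against 249 and 224 CPM. FOXC1, a forkhead factor, had 12.9 and 11.7 CPM against 8.28 and 8.45 CPM. The epithelial and the mesenchymal lists thus had nearly equal medians, 0.13 and 0.14, and the difference between them was not tested.

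**Figure D5:**
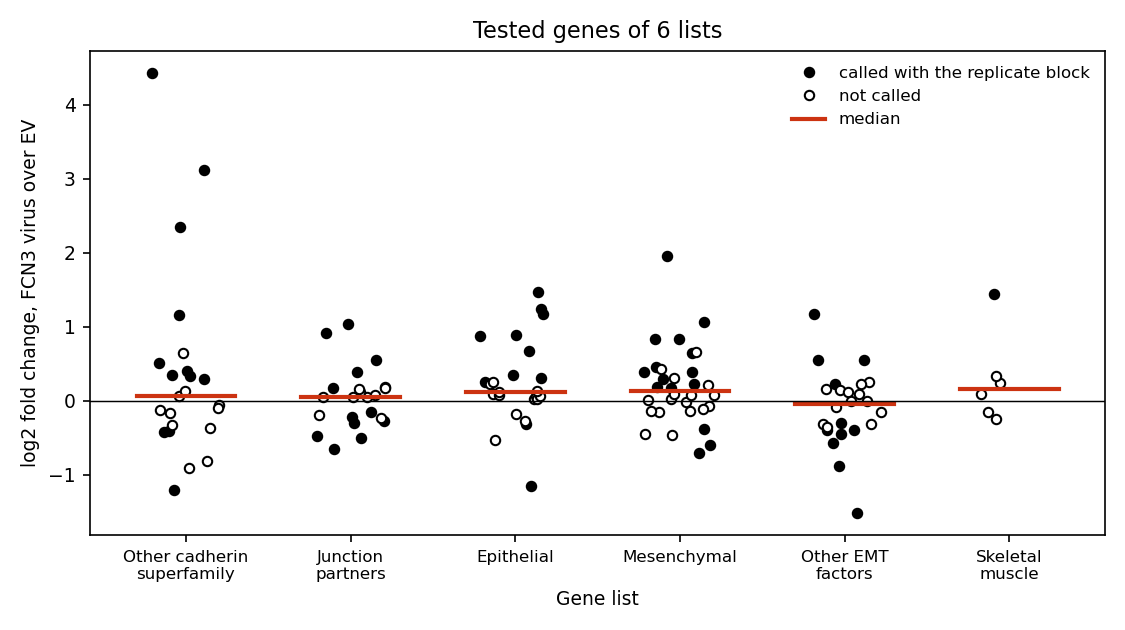
Log2 fold change (edgeR without the block, FCN3 virus over EV) of each tested gene of 6 lists, without the 10 genes themselves, with filled circles for genes called by edgeR with the replicate block, open circles for the others and a red line for the median of each list. The medians lie between −0.04 and 0.16, beside 0.02 over all tested genes, and every list but the skeletal muscle one holds called genes on both sides of 0.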

How the data were processed

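mRNA was sequenced from 4 libraries of A549 cells, 2 EV and 2 FCN3 virus, grouped and numbered by the sample labels. The authors prepared stranded libraries, aligned reads to hg19 with STAR 2.6.1d (version from the submitters' processing notes) and estimated abundance with RSEM. The deposited expected counts, estimated per gene and not normalized, and the deposited TPM, normalized by the authors' software for length and depth, were used. FPKM was not used. Which annotation and strand setting the counting used is not given in the sources used here. Depth was 16353554 to 35733735 expected counts per library.

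Expected counts were rounded and fitted in R 4.3.3 with edgeR 4.0.16 (TMM, filterByExpr, quasi-likelihood test, Benjamini-Hochberg adjustment, FDR 0.01) on 14099 of 25192 genes, with and without a block for the replicate number, and with DESeq2 1.42.0, which gave an adjusted p for 13552 genes. For edgeR, SE = |log2 fold change| / √F. Differences within a replicate number are of log2 CPM with a prior count of 2. limma 3.58.1 was used on TPM. Intervals and floors cover counting error only. The tests were checked on simulated data, in which every gene had the same small dispersion and changed genes had a log2 change of 1 up or down. With no replicate shifts, edgeR recovered 177 of 200 changed genes without the block and 176 with it. DESeq2 then recovered 156 without and 141 with the block. When both groups were given the same replicate shifts, taken from the real libraries, edgeR recovered 0 of 200 changed genes without the block and 180 with it. DESeq2 recovered 124 without and 143 with the block. Because the shifts were equal in both groups and the dispersion was fixed and small, this simulation favoured the block by design. It cannot show which fit is right for the real libraries, where edgeR without the block called 136 genes. A lack of calls in edgeR without the block does not by itself show a lack of change.

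The 10 genes, the lists and the rules were chosen with earlier results of these data known. Genes named are the 10, FCN3, the cell type markers, the tested neighbours of CDH15, the 3 genes most like CDH15, and, per list, up to 4 called genes with the largest change among those called with the block and at least 1 CPM on average, and any called without it. The result for 1 named gene is left out. The replicate numbers come from the labels, which do not say what a number shares. Differences between replicates of the EV and FCN3 groups correlated across 8310 genes (Pearson's r = 0.806, across genes, which are not independent). Libraries of a group differed beyond sampling noise (chi-square per degree of freedom 24.0 and 17.7). Gene positions are from GENCODE on GRCh37 and promoters from RefSeq on GRCh38.p14.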

Additional observations from a re-analysis of the deposited data

How the results depend on the processing

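Settings added after seeing the data were the legacy quasi-likelihood method, and the legacy method, RLE factors and no filter each with the replicate block. Calls over all tested genes, 136 by edgeR without the block, were 5103 with the replicate block, 1077 by DESeq2, 2257 by DESeq2 with the block, 1014 at an FDR of 0.05, and with the block 5170 by the legacy method, 5315 with RLE factors and 4241 with no filter. Leaving out each library gave 92 to 267, and 267 without EV replicate 2. In the same order, calls among the 8 tested genes other than CDH15 were 7, 3, 3, 2, 7, 7 and 6, and 0 when any 1 library was left out. Without a filter, the block no longer called SNAI2. RLE factors, no filter, at least 10 counts in every library, FCN3 left out before normalization, limma on log2(TPM + 1) and log2(TPM + 0.1) and the legacy method, all without the block, called 0 of the 8. The block pairs libraries by number and leaves 1 residual degree of freedom, so no library could be left out of it.

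In the same order, other cadherin genes had 12, 2, 8, 4, 12, 14 and 11 calls, beside 1, with 0 by limma on log2(TPM + 1) and 0 to 1 with a library left out (0 without FCN3 replicate 1). Epithelial genes had 11, 4, 7, 4, 12, 11 and 10, beside 0 (0 to 2 with a library left out, 1 without either EV library and 2 without FCN3 replicate 2). Mesenchymal genes had 15, 3, 9, 4, 17, 15 and 14, beside 0 (0 to 1, with 1 without EV replicate 2). Other factors had 11, 3, 7, 2, 11, 11 and 11, beside 0 (0 to 3, with 3 without EV replicate 1, 1 without EV replicate 2 and 2 without FCN3 replicate 2). With the replicate block, junction partners had 13 calls by edgeR, 6 by DESeq2, 11 by the legacy method, 13 with RLE factors and 10 with no filter, and muscle genes had 1 in each edgeR fit with the block.

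The log2 fold change of SNAI1 (−0.04) reversed to 0.41 without EV replicate 2 and 0.21 without FCN3 replicate 1, and that of SNAI2 (0.65) to −0.42 without FCN3 replicate 1, within ranges of −0.52 to 0.41 and −0.42 to 1.14 when each library was left out. The other tested genes kept their sign with any library left out, from −1.09 to −0.10 for CDH1, 0.45 to 0.59 for CDH2, −1.39 to −0.83 for EPCAM, 0.32 to 0.44 for VIM, 0.29 to 0.57 for ZEB1 and 0.75 to 1.01 for ZEB2. That of CDH15 (5.99) was 2.22 with a pseudocount of 1 TPM, 4.71 with 0.1 TPM and 6.59 without EV replicate 1. At least 10 counts in every library removed CDH15. The cause of these differences was not tested.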
